A study of Mus musculus and Homo sapiens with 34 samples.

Results

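The MEK inhibitor trametinib was tested in H358, an established human lung adenocarcinoma cell line, in 4 of the 34 RNA sequencing libraries of the study. The comparison was defined by treatment: 2 libraries of cells given 20 nM trametinib for 48 hours were set against 2 libraries of vehicle-treated cells harvested at the same time, and all genes were included. H358 cells were grown in RPMI with 10% serum, and no genetic change made by the study is named for them. The study as a whole asked how the lineage regulator HNF4A and RAS pathway inhibitors act on lung adenocarcinoma cultures, and H358 is a line in which HNF4A was not detected. H1651, another human adenocarcinoma line, received the same dose for the same time in 2 vehicle and 2 trametinib libraries and is used below for comparison. The deposited table listed 26245 genes, of which 18972 had enough counts in H358 to be tested.

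MEK is the kinase that phosphorylates and activates ERK, the last kinase of the cascade that runs from receptor tyrosine kinases through RAS and RAF. Active ERK switches on immediate early and ETS family transcription factors, drives entry into the cell cycle, and induces its own inhibitors, among them the dual-specificity phosphatases and the Sprouty and Spred proteins. In lung adenocarcinoma this cascade is often active without growth factor, and its level is also known to influence whether tumour cells keep features of alveolar cells.

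Expression is given as CPM (counts scaled to a common library size), scaled between libraries by TMM, with the value of each library or as mean ± SD of n = 2 libraries. A change is the log2 ratio of trametinib to vehicle with its standard error, from edgeR's quasi-likelihood test, and a gene was called when its Benjamini-Hochberg adjusted p over all genes tested was under 0.05. Only called genes are described as rising or falling. The H358 libraries held from 24843636 counts, in trametinib replicate 2, to 44081505 counts. The share of counts on mitochondrial genes was between 5.27% and 5.85%, with overlapping ranges in the treated and untreated groups. The labels do not say whether replicates were separate cultures, so p-values measure only the spread between these libraries.

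HNF4A had 0 counts in each of the 4 libraries, and the upper limit set by 0 counts lay between 0.0645 and 0.118 CPM in the 4 libraries (3 counts, counting error only). The trefoil gene TFF1 and the gastrokine genes GKN1 and GKN2, which mark stomach epithelium, also had 0 counts in every library, before and after treatment. General epithelial genes were present: EPCAM, a surface adhesion protein of epithelium, stood at 747 ± 14.1 CPM and the keratin KRT7 at 1006 ± 19.4 CPM in vehicle. Differentiated alveolar products were low or absent. SFTPB, a surfactant protein gene of alveolar type 2 cells, had 0 counts in all 4 libraries, and NAPSA, an aspartic protease of the same cells, stood at 1.64 ± 0.00745 CPM in vehicle. NKX2-1, the transcription factor that specifies lung epithelium, was abundant, at 118 and 132 CPM in the vehicle libraries.

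Trametinib changed the levels of a large share of the transcriptome in both directions. Of 18972 genes tested, 8871 were called, which is 46.8% of them, with 4466 higher (23.5%) and 4405 lower (23.2%), and the median log2 change over all genes was 0.02. Counting only genes that were called with at least a 2-fold change, 2189 were higher (11.5%) and 1929 were lower (10.2%), 21.7% in all. Steep changes were more often increases than decreases: 134 genes rose and 61 fell at least 16-fold. Protein-coding genes were called in similar numbers each way, with 3589 higher and 3657 lower of 13801. Long non-coding RNAs were more often higher, 749 against 547 of 3925, and pseudogenes more often lower, 173 against 79 of 966. These values are relative to the total RNA of a culture, so fewer cells of a kind and less RNA per cell cannot be told apart.

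**Figure D1:**
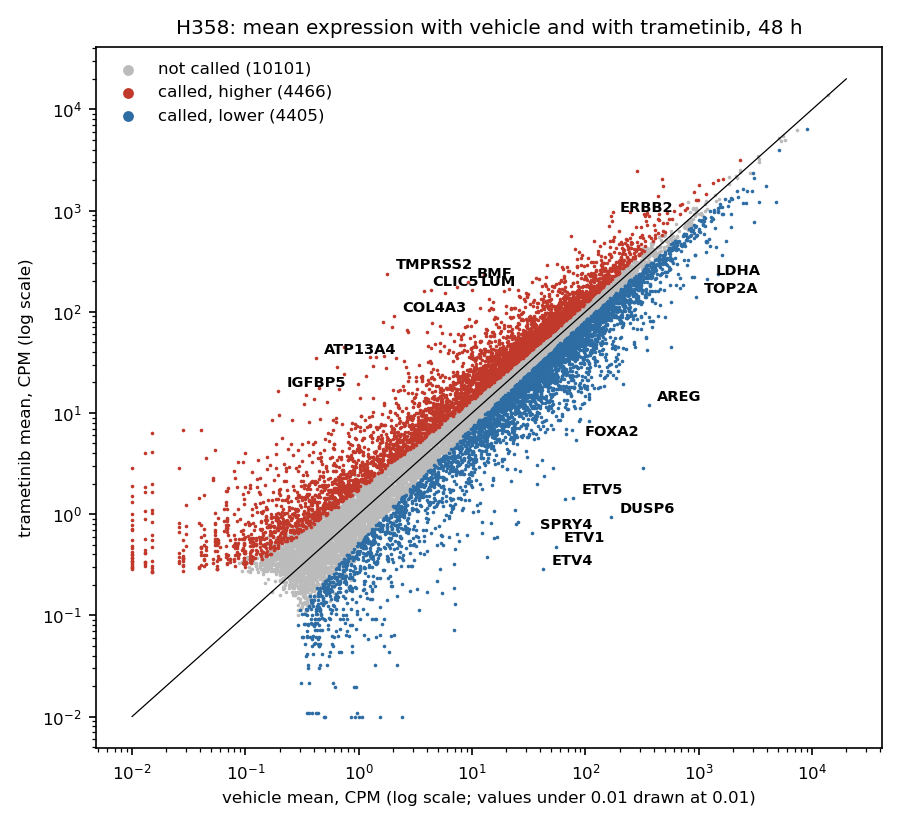
Mean expression of the 18972 tested genes with vehicle (horizontal axis) and with trametinib (vertical axis), in CPM on log axes; each point is a gene and the line marks equal levels. The 4466 called rises (red) and 4405 called falls (blue) spread to both sides, and among genes of at least 10 CPM in the higher group DUSP6, ETV4 and ETV1 lie farthest below the line and TMPRSS2, ATP13A4 and IGFBP5 farthest above it.

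The direct feedback inhibitors of the pathway fell together. All 10 tested members of this list were called and lower, against 23.2% of all genes, with a median log2 change of -1.74 and a range from -7.59 to -0.73. DUSP6, a phosphatase that inactivates ERK in the cytoplasm, stood at 158 and 177 CPM in the vehicle libraries and at 0.645 and 1.22 CPM in the trametinib libraries. This was a 180.0-fold fall (log2 change -7.59 ± 0.23, adjusted p 1.40e-06), the steepest of any gene of at least 10 CPM in the higher group. SPRY4, which restrains signalling between receptors and RAF, went from 32.4 and 35.3 to 0.580 and 0.707 CPM (log2 change -5.74 ± 0.19). DUSP5, a nuclear ERK phosphatase, fell from 60.5 and 42.1 to 2.36 and 3.34 CPM, and DUSP4, another nuclear phosphatase, from 214 and 175 to 24.2 and 27.4 CPM. None of these members overlapped between treated and untreated libraries, as was so for 75.9% of all genes tested. The Spred genes, whose products bring the RAS inhibitor neurofibromin to the membrane, fell less far: SPRED1 from 83.6 to 28.6 CPM, SPRED2 from 76.0 to 23.5 CPM and SPRED3 from 13.6 to 3.95 CPM. At the mild end of the list were DUSP7 (log2 change -0.83) and SPRY2 (log2 change -0.73, adjusted p 0.00216). As a sum over the list, feedback inhibitors went from 748 to 147 CPM.

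Transcription factors downstream of ERK fell in most cases, some to near absence. Of 16 tested members, 9 were lower, 2 were higher and 5 were not called, where 23.2% of all genes were lower and 23.5% higher, with a median of -0.83. The PEA3 subfamily of ETS factors was at the extreme. ETV4 stood at 43.6 and 40.5 CPM with vehicle and 0.258 and 0.314 CPM with trametinib (log2 change -7.22 ± 0.20, adjusted p 1.40e-06). ETV1 went from 56.0 and 53.2 to 0.365 and 0.589 CPM and ETV5 from 77.0 and 79.0 to 1.10 and 1.77 CPM, so that each of the 3 genes was left with under 2 CPM in every treated library. EGR1, an immediate early zinc finger factor, fell from 40.9 and 33.5 to 2.51 and 1.49 CPM. FOSL1, the AP-1 subunit FRA1, fell from 116 and 97.2 to 4.60 and 11.9 CPM, and its log2 change of -3.75 became -4.54 without trametinib replicate 2 and -3.16 without trametinib replicate 1. MYC, a growth regulator, fell from 44.9 and 52.8 to 18.6 and 17.2 CPM.

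Of the other AP-1 subunits, FOSL2 and JUN rose, and FOS, FOSB, JUNB and JUND were not called. FOSL2 rose from 118 and 131 to 289 and 335 CPM and JUN from 93.5 and 81.5 to 190.0 and 165 CPM, both called (adjusted p 8.86e-05 and 3.47e-04). FOS, whose induction by growth factors is transient, stood at 71.4 and 10.5 CPM with vehicle and at 33.6 and 2.24 CPM with trametinib. Its treated and untreated libraries overlapped, although it was lower with trametinib within each replicate number. It was not called (log2 change -1.15, adjusted p 0.382), but was called with a replicate block, as given further below. Its log2 change without a block ran from -4.19 without trametinib replicate 1 to 0.78 without vehicle replicate 1. FOSB showed the same kind of spread, with 4.87 and 1.22 CPM in vehicle and 17.8 and 1.26 CPM in trametinib (log2 change 1.67, and -1.28 without trametinib replicate 1). JUNB stood at 177 ± 3.70 and 195 ± 11.7 CPM, and JUND at 90.1 ± 2.98 and 79.4 ± 2.66 CPM.

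**Figure D2:**
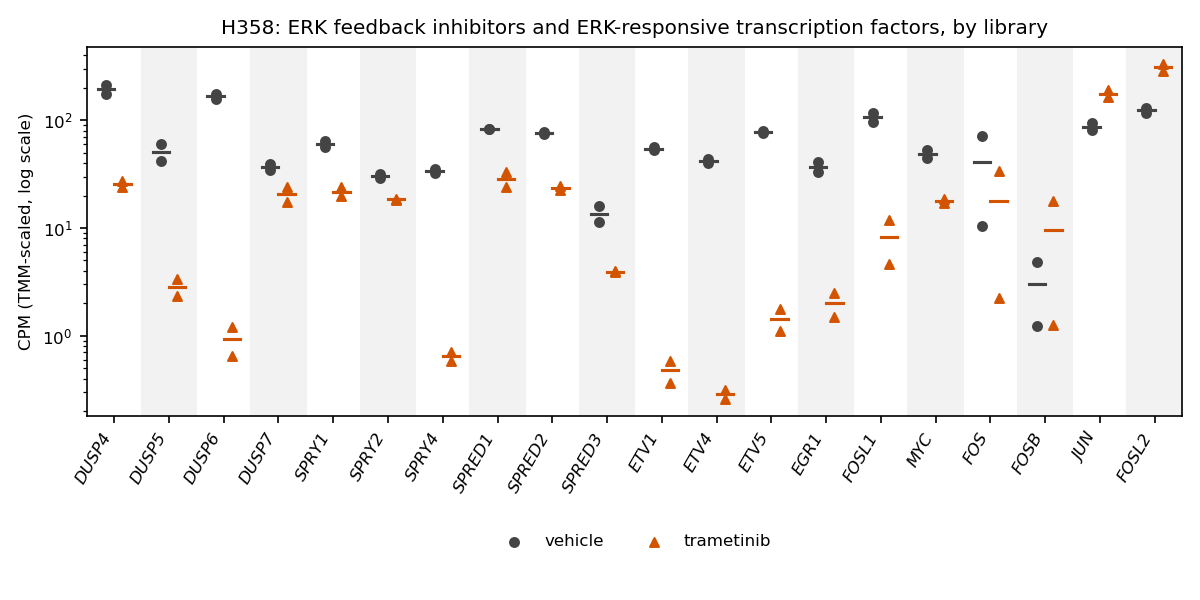
Expression in each H358 library of the 10 feedback inhibitors and 10 ERK-responsive transcription factors, in CPM on a log axis; circles are vehicle libraries, triangles trametinib libraries and bars the means. DUSP6, SPRY4, ETV1, ETV4 and ETV5 sit lowest with trametinib, JUN and FOSL2 sit higher with it, and FOS and FOSB show a wide spread within both treatments.

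Genes of the cascade itself were called about as often as all genes. Of 18 tested core genes, 2 were higher and 7 lower, against 23.5% and 23.2% of all genes. The remaining 9 were not called, where 46.8% of all genes were called, and the median was 0.01. MAP2K1, which encodes MEK1, a target of trametinib, fell from 145 and 142 to 52.6 and 61.1 CPM (log2 change -1.34 ± 0.11, adjusted p 7.37e-05), while MAP2K2, which encodes the other target MEK2, stood at 73.7 ± 4.02 and 66.5 ± 2.73 CPM and was not called. RASA1, a RAS GTPase-activating protein that turns RAS off, fell from 255 and 229.7 to 86.0 and 96.2 CPM. SOS2, an exchange factor that turns RAS on, rose from 56.9 and 49.7 to 101 and 89.8 CPM.

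More receptor tyrosine kinase genes rose than fell, and more EGF family ligand genes fell than rose. Among 19 tested receptors 11 were higher and 4 lower, against 23.5% and 23.2% of all genes, so the falls were near the share of all genes, with a median log2 change of 0.79. ERBB2, the ligandless receptor HER2, rose from 173 and 162 CPM to 902 and 871 CPM, a 5.30-fold rise (log2 change 2.41 ± 0.10, adjusted p 5.73e-06). Its partner ERBB3 rose from 105 and 97.1 to 190.4 and 171 CPM. EPHA4, an ephrin receptor, rose from 15.3 to 42.4 CPM, and FGFR2, a fibroblast growth factor receptor, from 9.92 and 10.7 to 27.7 and 24.4 CPM. MET, the hepatocyte growth factor receptor, fell from 478 and 425 to 221 and 169.9 CPM, and EPHA2 fell from 482 and 421 to 247 and 214 CPM. EGFR, the receptor for EGF, stood at 97.4 and 89.5 CPM with vehicle and 90.2 and 99.3 CPM with trametinib and was not called.

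Of 8 tested EGF family ligands 4 fell, 1 rose and 3 were not called, against 23.2% lower and 23.5% higher over all genes. Amphiregulin, AREG, went from 398 and 325 CPM to 9.71 and 14.1 CPM, a 30.4-fold fall (adjusted p 4.57e-06). Epiregulin, EREG, fell from 222 and 209.6 to 18.1 and 20.9 CPM and TGFA from 169.8 and 163 to 28.2 and 32.3 CPM. HBEGF, which also binds the EGF receptor, was the only riser, from 5.21 and 3.76 to 8.44 and 15.2 CPM. As a sum, the ligand list went from 823 to 128 CPM.

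Cell cycle genes fell as whole lists. Every one of the 31 tested DNA replication genes and of the 30 tested mitosis genes was called, lower and changed at least 2-fold, where 10.2% of all genes were. The medians were -1.61 and -2.61. Of the replication genes, RRM2, the inducible subunit of ribonucleotide reductase, fell from 228 and 308 to 35.1 and 60.1 CPM and MCM4, a subunit of the replicative helicase, from 443 and 546 to 129.6 and 195 CPM. Of the mitosis genes, AURKB, the kinase of the chromosomal passenger complex, fell from 87.1 and 98.2 to 8.81 and 15.6 CPM and PLK1, a mitotic entry kinase, from 119.6 and 147 to 12.4 and 23.5 CPM. The proliferation antigen gene MKI67 went from 348 and 419 to 50.4 and 90.6 CPM. The mitosis list summed to 5348 and 6068 CPM with vehicle and to 733 and 1287 CPM with trametinib.

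Among regulators of the G1 phase 10 of 17 were lower and 3 higher, against 23.2% and 23.5% of all genes. CCND1, the D cyclin induced by ERK, stood at 723 and 845 CPM with vehicle and 388 and 627 CPM with trametinib (log2 change -0.63, adjusted p 0.0353). The call was lost without trametinib replicate 1 (adjusted p 0.0669). CCND3 fell from 38.0 to 17.9 CPM and CDK2, the kinase that drives entry into S phase, from 109 to 40.1 CPM. Inhibitors of cyclin-dependent kinases went both ways. CDKN1A, encoding p21, rose from 81.0 and 90.4 to 151 and 177 CPM and CDKN2B, encoding p15, from 69.4 and 55.7 to 134 and 173 CPM. CDKN2C and CDKN2D, encoding p18 and p19, fell from 18.9 to 7.12 CPM and from 9.71 to 2.61 CPM. CDKN1B, encoding p27, was not called (35.9 and 43.6 CPM).

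**Figure D3:**
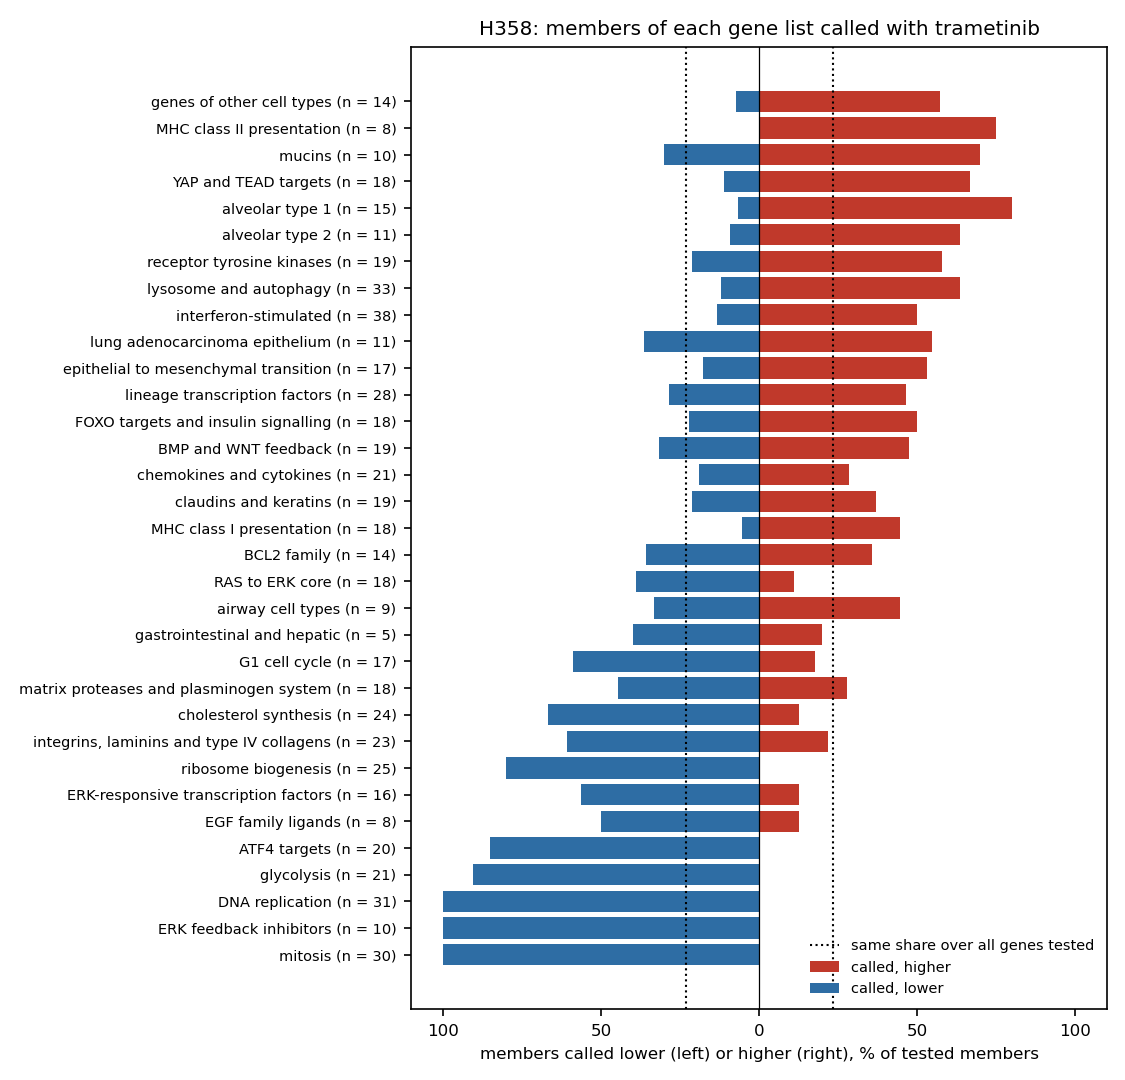
Share of the tested members of each gene list that were called higher (red, to the right) or lower (blue, to the left) with trametinib, in % of the number n given beside each name; dotted lines mark the same shares over all 18972 genes. Mitosis, DNA replication and ERK feedback reach 100% lower, and the alveolar type 1, MHC class II and mucin lists lie mostly to the right.

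Genes of energy and biosynthetic metabolism fell in most of their lists. Of 21 glycolysis genes 19 fell and none rose, against 23.2% lower over all genes, with a median of -1.35. Together the list went from 1.91% to 0.710% of all scaled counts. LDHA, which makes lactate, fell from 1076 and 1303 to 181 and 241 CPM (log2 change -2.50 ± 0.16, adjusted p 2.54e-05), and ENO1, an enolase, from 4581 and 5007 to 1109 and 1294 CPM. HK2, the hexokinase induced in tumours, fell from 205 to 56.6 CPM. The glucose transporter SLC2A1 was not called: it stood at 571 ± 42.9 and 584 ± 8.59 CPM.

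Targets of ATF4, the factor that drives amino acid synthesis and uptake, fell in 17 of 20 cases and rose in none, against 23.2% lower and 23.5% higher over all genes, with a median of -1.10. PSAT1 and PHGDH, enzymes of serine synthesis, fell from 153 to 33.4 CPM and from 173 to 51.4 CPM. SLC7A11, the cystine importer, fell from 67.8 and 68.5 to 14.8 and 16.8 CPM, and GDF15, a stress cytokine, from 61.3 and 42.5 to 8.87 and 5.10 CPM. Ribosome biogenesis genes fell in 20 of 25 cases, against the same 23.2%, with smaller changes (median -0.73), as in NOP56, a component of nucleolar methylation complexes, from 292 to 122 CPM. Among 24 cholesterol synthesis genes 16 were lower and 3 higher, the falls above the 23.2% and the rises below the 23.5% of all genes. INSIG1, which holds the sterol sensor in the endoplasmic reticulum, fell from 96.8 to 33.9 CPM, while TM7SF2, a sterol reductase, rose from 17.8 to 43.7 CPM.

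Lysosome and autophagy genes rose in most cases. Of 33 members 21 were higher, 4 were lower and 8 were not called, against 23.5% higher over all genes, with a median of 0.62. PSAP, the precursor of the saposins that help degrade sphingolipids, rose from 468 and 494 to 1789 and 1729 CPM (log2 change 1.87 ± 0.10, adjusted p 1.28e-05). GABARAPL1, a protein of autophagosome membranes, rose from 12.7 and 11.0 to 42.6 and 42.0 CPM and WIPI1, which acts in autophagosome formation, from 15.4 and 9.97 to 40.2 and 37.1 CPM. The protective protein of lysosomal glycosidases, CTSA, rose from 164 to 373 CPM. The exceptions included NPC2, a lysosomal cholesterol carrier, which fell from 313 to 124 CPM, and GLA, a galactosidase, which fell from 27.9 to 9.96 CPM.

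The BCL2 family and FOXO-related genes held a few large changes. BMF, a pro-apoptotic BH3-only protein, rose from 8.93 and 9.49 CPM to 210.0 and 181 CPM, a 21.2-fold rise (log2 change 4.41 ± 0.13, adjusted p 1.40e-06). BCL2L11, the BH3-only protein BIM that ERK is known to restrain, rose from 47.6 and 51.9 to 94.2 and 92.1 CPM. The survival gene BCL2L1 rose from 199 to 264 CPM (adjusted p 0.0140, and 0.128 without vehicle replicate 2). PMAIP1 and BIK, also BH3-only genes, fell from 61.7 to 23.3 CPM and from 9.16 to 3.97 CPM. Over the 14 tested members of the family 5 rose and 5 fell, against 23.5% and 23.2% of all genes. In the FOXO and insulin list 9 of 18 were higher and 4 lower, where 23.5% and 23.2% of all genes were. PIK3IP1, an inhibitor of PI3 kinase, rose from 5.75 and 4.75 to 39.5 and 42.8 CPM and the regulatory subunit PIK3R3 from 44.9 and 56.5 to 152 and 169 CPM, whereas the insulin receptor substrate IRS2 fell from 25.9 to 12.1 CPM.

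Genes of alveolar type 1 cells, the flat cells of gas exchange, and of type 2 cells, which secrete surfactant, were mostly higher after trametinib. Of 15 tested members of the type 1 list 12 were higher and 1 lower, against 23.5% and 23.2% of all genes, and the median was 1.20. CLIC5, a chloride channel protein of the type 1 cell membrane, rose from 3.26 and 4.27 CPM to 153 and 171 CPM (log2 change 5.43 ± 0.16, adjusted p 1.40e-06). The type IV collagen chains COL4A3 and COL4A4, which are made from neighbouring genes and form basement membrane together, rose from 2.41 and 1.70 to 102 and 79.1 CPM and from 5.70 and 5.79 to 141 and 168 CPM. HOPX, a homeodomain protein of type 1 cells, rose from 13.3 and 13.0 to 47.6 and 76.7 CPM and GPRC5A, a receptor of lung epithelium, from 175 and 179 to 927 and 1012 CPM. AGER, the classical type 1 marker, stood at 3.47 and 1.49 CPM with vehicle and 2.73 and 2.16 CPM with trametinib, overlapped between treatments and was not called. RTKN2, a further type 1 marker, fell from 15.9 to 8.01 CPM.

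Of 11 tested type 2 genes 7 were higher and 1 lower, against the same 23.5% and 23.2%, with a median of 1.13. CTSH, a cathepsin that processes surfactant proteins, rose from 13.8 and 14.8 to 61.4 and 52.8 CPM and ABCA3, the lipid pump of lamellar bodies, from 5.31 and 5.22 to 15.9 and 19.2 CPM. SLC34A2, the phosphate transporter of type 2 cells, was near absent with vehicle and rose from 0.129 and 0.179 to 4.02 and 3.34 CPM. The only type 2 gene to fall was ETV5, described above with the ERK-responsive factors. Surfactant protein genes were near the detection limit: SFTPB had 0 counts in every library, SFTPA1 had 1 count in all 4 libraries together, and SFTPA2 had from 1 to 4 counts in each. SFTPD, the only one with enough counts to be tested, had 8 and 0 counts with vehicle and 22 and 7 with trametinib and was not called (log2 change 1.81, adjusted p 0.103), though it passed the threshold without vehicle replicate 1 (adjusted p 0.0122) and without trametinib replicate 2 (adjusted p 0.0300). NAPSA, at 3.89 and 2.20 CPM with trametinib, was called (log2 change 0.92, adjusted p 0.0408), and the call was lost without vehicle replicate 1 (adjusted p 0.110), without vehicle replicate 2 (0.0813) and without trametinib replicate 1 (0.368).

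Transcription factors of the lung lineage changed in both directions. NKX2-1 rose from 118 and 132 to 170.4 and 176 CPM (log2 change 0.47 ± 0.11, adjusted p 0.00725), and the call was lost without vehicle replicate 1 (log2 change 0.35, adjusted p 0.0915). Its partners FOXA1 and FOXA2, forkhead factors that open chromatin in lung and gut epithelium, moved in opposite directions. FOXA1 rose from 38.7 and 52.9 to 112 and 113 CPM (log2 change 1.30 ± 0.15), and FOXA2 fell from 83.0 and 82.6 to 3.95 and 6.87 CPM (log2 change -3.97 ± 0.23, adjusted p 1.56e-05). Grainyhead factors, which control epithelial barrier genes, rose in 2 of 3 cases: GRHL3 from 1.32 and 1.52 to 29.3 and 42.8 CPM and GRHL1 from 23.4 and 20.9 to 90.4 and 83.9 CPM, while GRHL2 was not called. The epithelial ETS factor ELF3 rose from 131 and 124 to 416 and 330.0 CPM and ID2, an inhibitor of basic helix-loop-helix factors, from 7.74 and 8.33 to 47.3 and 59.6 CPM. HMGA1, a chromatin protein of undifferentiated and dividing cells, fell from 1630.0 and 1293 to 230.5 and 244 CPM, and HMGA2 fell from 76.8 to 22.3 CPM. Over this list of 28 genes 13 were higher and 8 lower, the falls near the 23.2% of all genes and the rises above the 23.5%.

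**Figure D4:**
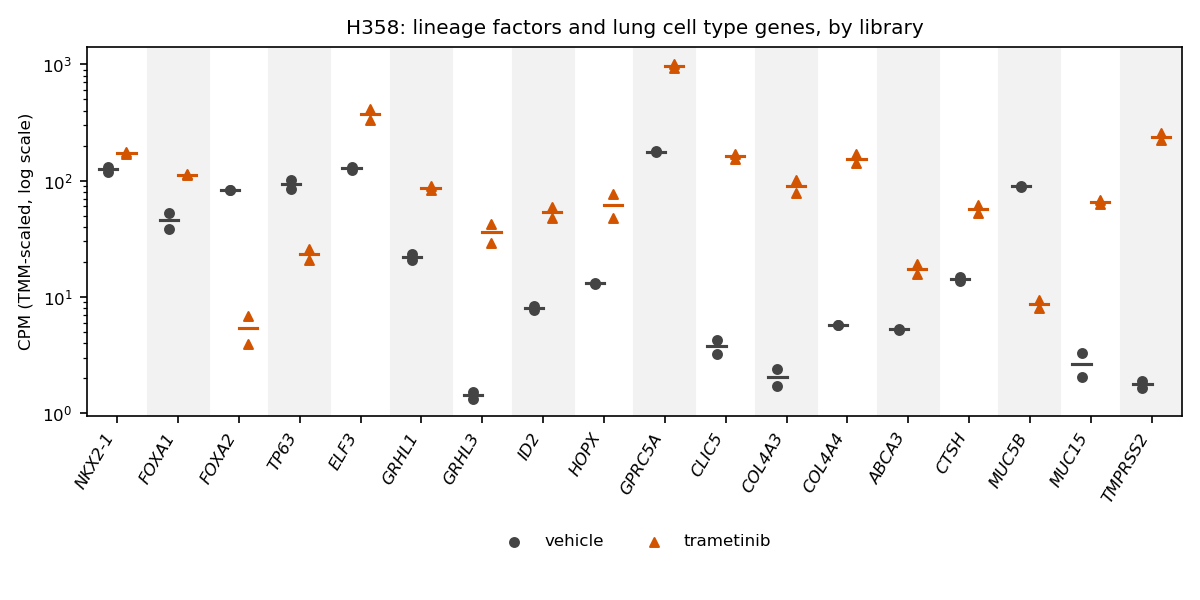
Expression in each H358 library of lineage transcription factors and lung cell type genes, in CPM on a log axis; circles are vehicle libraries, triangles trametinib libraries and bars the means. FOXA2, TP63 and MUC5B are lower with trametinib, the other genes shown are higher, and TMPRSS2, CLIC5, COL4A3 and COL4A4 show the widest separation.

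Airway genes and mucins changed in both directions, with 4 of 9 airway genes higher and 3 lower, where 23.5% and 23.2% of all genes were. TP63, the basal cell factor p63, fell from 85.1 and 101 to 25.9 and 20.9 CPM. MUC5B, the gel-forming mucin of airway secretory cells, fell from 89.9 and 88.9 to 9.45 and 7.97 CPM, and MUC5AC, the other airway gel-forming mucin, fell from 2.83 to 0.175 CPM. FOXJ1, the master factor of ciliated cells, rose from 2.02 and 1.13 to 9.71 and 5.69 CPM. All 10 tested mucins were called, against 46.8% of all genes, with 7 higher and 3 lower, against 23.5% and 23.2%. The 7 that rose were cell surface mucins, among them MUC1 (from 21.0 to 56.8 CPM), MUC16 (from 46.0 to 119 CPM), MUC20 (from 9.81 to 72.7 CPM) and MUC15 (from 2.67 to 65.7 CPM), and the 3 that fell were both gel-forming genes and the surface mucin MUC12 (from 0.688 to 0.0930 CPM). CYP2F1, a cytochrome of club cells, had 0 counts in the vehicle libraries and 84 and 50 counts in the trametinib libraries, at least 44.7-fold higher against a floor of 3 counts over the vehicle group. The secretoglobin SCGB3A2 had 0 and 1 counts with vehicle and 2 and 2 counts with trametinib, and the club cell marker SCGB1A1 was not listed in the H358 data. Few gastrointestinal and hepatic genes were expressed: 5 of the list of 32 could be tested. VSIG1, a junction protein of stomach epithelium, fell from 12.9 to 3.07 CPM, and AGR2, a disulfide isomerase of mucous cells, was not called at 163 and 169 CPM.

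In the epithelial to mesenchymal transition list 9 of 17 genes were higher and 3 lower, against 23.5% and 23.2% of all genes, and both epithelial and mesenchymal genes were among those that rose. The 3 that fell were genes of epithelium: EPCAM from 757 and 737 to 459 and 470.4 CPM, ESRP1, an epithelial splicing regulator, from 352 to 251 CPM, and ITGB6, an epithelial integrin subunit, from 122 to 54.0 CPM. The junction protein E-cadherin, CDH1, rose from 432 and 465 to 833 and 1028 CPM and occludin, OCLN, from 23.4 and 25.3 to 62.3 and 80.1 CPM. Of the mesenchymal genes, vimentin, VIM, rose from 242 and 203 to 421 and 538 CPM and fibronectin, FN1, from 416 and 456 to 1297 and 1499 CPM. TGFB2, a ligand of the TGF-beta family, rose from 33.8 and 27.5 to 134 and 143 CPM. TWIST1, a mesenchymal transcription factor, had 0 counts in every library. Of the tested factors of this kind, SNAI2 rose from 21.9 to 31.3 CPM and ZEB2 from 0.382 to 1.26 CPM. SNAI1, SNAI3 and ZEB1 were not called. The keratins of simple epithelium KRT8 and KRT18 fell from 1919 to 932 CPM and from 1149 to 385 CPM, whereas KRT7 and KRT4 rose from 1006 to 1770.1 CPM and from 74.5 to 565 CPM.

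Integrin, laminin and type IV collagen genes were lower in 14 of 23 cases and higher in 5, the falls above the 23.2% and the rises near the 23.5% of all genes. ITGA2, a collagen receptor subunit, fell from 86.0 and 71.6 to 12.9 and 10.6 CPM and ITGA6, a laminin receptor subunit, from 394 and 297 to 58.8 and 50.4 CPM. LAMB2, a laminin chain, rose from 150.4 and 141 to 533 and 426 CPM. Of 18 matrix protease and plasminogen genes 8 fell and 5 rose, the falls above the 23.2% and the rises near the 23.5% of all genes. PLAT, the tissue plasminogen activator, fell from 97.4 to 12.6 CPM, while MMP7, matrilysin, rose from 5.17 to 73.0 CPM. Targets of YAP and TEAD, which respond to cell shape and contact, were higher in 12 of 18 cases and lower in 2, against 23.5% higher over all genes, with a median of 1.25. CCN1, a matricellular protein, rose from 66.2 and 46.5 to 359 and 237 CPM and AMOTL2, an angiomotin that binds YAP, from 60.7 and 60.7 to 222 and 189.7 CPM. NT5E, which makes extracellular adenosine, fell from 577 and 435 to 98.7 and 79.3 CPM.

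Interferon-stimulated genes rose in 19 of 38 cases, fell in 5 and were not called in 14, against 23.5% higher over all genes, with a median of 0.54. MX1, an antiviral GTPase, went from 8.88 and 12.6 to 74.0 and 88.0 CPM and IFI6, a mitochondrial interferon-induced protein, from 34.4 and 38.9 to 193 and 239 CPM. STAT2, which carries the type I interferon signal to the nucleus, rose from 46.9 and 33.9 to 179.5 and 129 CPM and its partner IRF9 from 9.50 and 8.24 to 21.9 and 19.9 CPM. OASL and HERC5, which belong to the same list, fell from 37.8 to 7.40 CPM and from 77.7 to 23.3 CPM. ISG15 was not called at 114 and 92.9 CPM.

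Of 18 MHC class I presentation genes 8 were higher and 1 lower, against 23.5% and 23.2% of all genes, with a median of 0.23. In either direction, 9 called of 18 is near the 46.8% of all genes. Among those that rose were TAPBP, the peptide loading chaperone tapasin (from 138 to 291 CPM), and HLA-E (from 113 to 206 CPM), whose reads may be shared with other class I genes. Of 8 tested class II presentation genes 6 were higher, where 23.5% of all genes were. CTSS, the cathepsin that trims the invariant chain, rose from 17.4 and 13.5 to 90.8 and 78.8 CPM and HLA-DMA, a peptide editor, from 3.78 and 2.54 to 16.8 and 11.7 CPM. CTSS held most of the sum of the list, which went from 26.2 to 112 CPM. HLA-DRA, a chain of a class II molecule, had 7 and 2 counts with vehicle and 55 and 9 counts with trametinib. Of the secreted factors, CXCL8, the neutrophil-attracting chemokine, fell from 36.3 and 49.4 to 2.08 and 2.63 CPM, and VEGFA, the endothelial growth factor, from 757 and 688 to 173 and 193 CPM. TNFSF10, the death ligand TRAIL, rose from 3.43 to 10.3 CPM. Over the 21 tested chemokines and cytokines 6 rose, 4 fell and 11 were not called, so members of this list were called about as often as all genes (46.8%).

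The BMP and WNT list, which holds ligands and feedback regulators of both pathways, had 9 of 19 members higher and 6 lower, where 23.5% and 23.2% of all genes were. NKD2, an inhibitor of WNT signalling, fell from 72.0 and 63.3 to 5.14 and 7.34 CPM (log2 change -3.46 ± 0.19, adjusted p 1.17e-05). The WNT ligand WNT7A fell from 2.58 to 1.15 CPM, while the ligand WNT5A rose from 11.8 to 36.0 CPM. BMP4, a ligand of the other pathway, rose from 48.6 to 90.3 CPM, and AXIN2, a common readout of WNT signalling, was not called at 2.42 and 3.10 CPM.

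Genes outside the lists were among those that changed most. TMPRSS2, a membrane serine protease of lung and prostate epithelium, went from 1.66 and 1.91 CPM to 222 and 255 CPM, a 134-fold rise that was the steepest of any gene of at least 10 CPM in the higher group (log2 change 7.06 ± 0.16, adjusted p 9.31e-07). ATP13A4, a transport ATPase, rose from 0.414 and 0.418 to 30.9 and 38.5 CPM and IGFBP5, which binds insulin-like growth factors, from 0.181 and 0.209 to 14.2 and 18.4 CPM. VTCN1, the immune checkpoint ligand B7-H4, rose from 0.829 and 0.657 to 50.2 and 38.6 CPM and SULT1E1, an oestrogen sulfotransferase, from 0.829 and 0.448 to 33.3 and 23.7 CPM. FILIP1L rose from 4.38 to 165 CPM and TNNC1, a cardiac and slow muscle troponin, from 0.446 to 17.5 CPM. ALPP and ALPG, alkaline phosphatases of placenta and germ cells, rose from 1.64 to 79.4 CPM and from 0.328 to 12.3 CPM, but the copies are nearly identical and the division of reads between them is uncertain, and without vehicle replicate 2 the log2 change of ALPG was 5.85 in place of 5.25. The histone gene H2BC26 rose from 1.98 to 71.3 CPM, also a member of a family of near-identical copies.

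At the other end, FGFBP1, a secreted carrier of fibroblast growth factors, fell from 73.2 and 59.5 to 1.40 and 1.41 CPM (log2 change -5.56 ± 0.18). CX3CL1, the chemokine fractalkine, fell from 17.5 and 15.4 to 0.688 and 0.510 CPM, and SHISA3, a WNT and FGF receptor antagonist, from 17.9 and 13.4 to 0.537 and 0.628 CPM. PADI3, a peptidylarginine deiminase, fell from 16.6 and 10.5 to 0.602 and 0.157 CPM, with a log2 change of -4.97, and -6.39 without trametinib replicate 1. The long non-coding RNAs LINC00973 and LUCAT1 fell from 25.2 to 0.840 CPM and from 24.2 to 0.801 CPM. For LUCAT1 the log2 change was -4.82, and -5.44 without trametinib replicate 1.

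Some genes that mark stromal or vascular cells were also higher. Of 14 tested genes of other cell types 8 rose and 1 fell, against 23.5% and 23.2% of all genes, and their summed level went from 46.9 to 57.0 CPM in the vehicle libraries to 261 to 367 CPM in the trametinib libraries. LUM, the matrix proteoglycan lumican, rose from 12.3 and 7.76 to 200.4 and 127 CPM, COL1A1, a fibrillar collagen, from 36.4 and 32.3 to 141 and 111 CPM, and CDH5, a cadherin of endothelium, from 0.570 and 0.508 to 8.04 and 4.71 CPM. LUM and COL1A1 held most of this sum. VWF, a clotting factor of endothelium, rose from 1.52 to 7.23 CPM and the collagen COL3A1 from 0.572 to 6.13 CPM, while other markers of the same cell types were near 0 in treated libraries. The fibroblast gene DCN had 0 counts with vehicle and 20 and 8 counts with trametinib, COL1A2 had 0 counts and then 19 and 6, and the endothelial marker PECAM1 stood at 0.559 and 0.137 CPM. PTPRC, the leukocyte marker, stood at 0.182 and 0.660 CPM, and its call was lost without vehicle replicate 1 (adjusted p 0.0713) and without trametinib replicate 1 (0.0713). The part of other cell types in these results was not tested.

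Fewer genes responded in H1651 at the same dose and time. In a fit of all 8 libraries, 8338 of 21188 genes were called in H358 (39.4%) and 2 in H1651 (0.00944%), which were DUSP6 and EGR1. The difference between the lines was itself tested, and 4087 genes were called (19.3%), 1998 with the higher log2 change in H358 (9.43%) and 2089 with the lower (9.86%). Leaving out single libraries lowered this count to as few as 2177, without H358 vehicle replicate 2, and to 2588 without H358 vehicle replicate 1, 2354 without H358 trametinib replicate 1 and 2639 without H1651 trametinib replicate 2. With replicate number as a term within each line, 626 genes were called in H1651 and 8472 differed between the lines. Over the 13223 genes of at least 1 CPM in the higher group of each line, the log2 changes of the lines had a Pearson r of 0.285, given as a description. Their median absolute log2 change was 0.441 in H358 and 0.0848 in H1651.

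DUSP6 and EGR1 fell in both lines. DUSP6 stood at 51.6 and 53.9 CPM in the H1651 vehicle libraries and 5.48 and 7.75 CPM in the H1651 trametinib libraries. Its log2 change was -3.00 there and -7.55 in H358, a difference of -4.56 ± 0.32 (adjusted p 2.79e-04). EGR1 fell in H1651 from 27.1 and 43.8 to 0.762 and 0.874 CPM, and the difference in its log2 change, 1.30 ± 0.45, was not called (adjusted p 0.0813). Among genes of at least 10 CPM in the highest group of either line, ETV1 had the largest called difference with the lower change in H358. In H1651 it stood at 17.4 and 16.2 CPM with vehicle and 10.4 and 14.7 CPM with trametinib, and the lines differed by -6.45 ± 0.32. ETV4 differed by -4.97 ± 0.96 (adjusted p 0.00920), between -3.71 without H1651 trametinib replicate 2 and -5.64 without H1651 trametinib replicate 1. It was -5.62 without H1651 vehicle replicate 2, and the call was lost without H358 trametinib replicate 1 (adjusted p 0.0575). Median log2 changes of the feedback inhibitor list in this fit were -1.71 in H358 and -0.73 in H1651, and 5 of its 10 members differed, all with the lower change in H358, against 9.86% of all genes.

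The cell cycle lists differed between the lines in every tested member. All 30 mitosis genes and all 31 DNA replication genes differed, each with the lower change in H358, against 9.86% of all genes, with medians near 0 in H1651 (-0.02 and -0.02). MKI67 stood at 279 and 263 CPM with vehicle and 262 and 197 CPM with trametinib in H1651, a difference of -2.19 ± 0.34 (adjusted p 0.00363). Of 21 glycolysis genes 16 differed, all with the lower change in H358, against the same 9.86%. LDHA stood at 1323 and 1366 and then 1209 and 1242 CPM in H1651.

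Genes that rose steeply in H358 were at varied levels in H1651. TMPRSS2 stood at 11.1 and 4.27 CPM with vehicle and 19.1 and 8.25 CPM with trametinib in H1651, and its log2 change differed by 6.28 ± 0.69 (adjusted p 9.39e-04, with 5.40 without H1651 vehicle replicate 1 and 7.00 without H1651 trametinib replicate 1). IGFBP5 was expressed in H1651 at 31.7 and 14.2 CPM before treatment and 35.8 and 22.1 CPM after it, and differed by 6.05 ± 0.69, or 5.34 without H1651 vehicle replicate 1. GRHL3, ATP13A4 and SULT1E1 stayed under 1 CPM in all H1651 libraries and differed by 6.65 ± 0.88, 5.95 ± 0.76 and 6.17 ± 1.27. The value of GRHL3 was 7.46 without H1651 vehicle replicate 1, 5.33 without vehicle replicate 2 and 7.44 without trametinib replicate 2. Without H1651 trametinib replicate 1 the value of ATP13A4 was 7.06 and that of SULT1E1 10.34, without trametinib replicate 2 they were 5.34 and 5.23, and SULT1E1 was not called without H1651 vehicle replicate 1. BMF differed by 3.72 ± 0.30, and ERBB2, at 67.4 and 55.1 and then 75.6 and 68.4 CPM in H1651, by 2.20 ± 0.17.

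FOXA2 stood at 3.96 and 2.23 CPM with vehicle and 5.59 and 3.91 CPM with trametinib in H1651, where it was not called, and the lines differed by -4.53 ± 0.44 (adjusted p 6.09e-04). FGFBP1, low in H1651 at 3.76 and 4.82 CPM with vehicle, differed by -4.67 ± 0.38. STC1 and HOXB4 were called as well, but had 8 counts in the H358 vehicle group and 0 in the trametinib group each, so no fold is given, and leaving out either H358 vehicle library, or H358 trametinib replicate 1, ended both calls. The call of HOXB4 was also lost without H358 trametinib replicate 2 and without either H1651 vehicle library. NKX2-1 stood at 56.8 and 26.8 CPM with vehicle and 67.2 and 39.1 CPM with trametinib in H1651, and its response was not called as different (difference 0.16 ± 0.46, adjusted p 0.886).

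**Figure D5:**
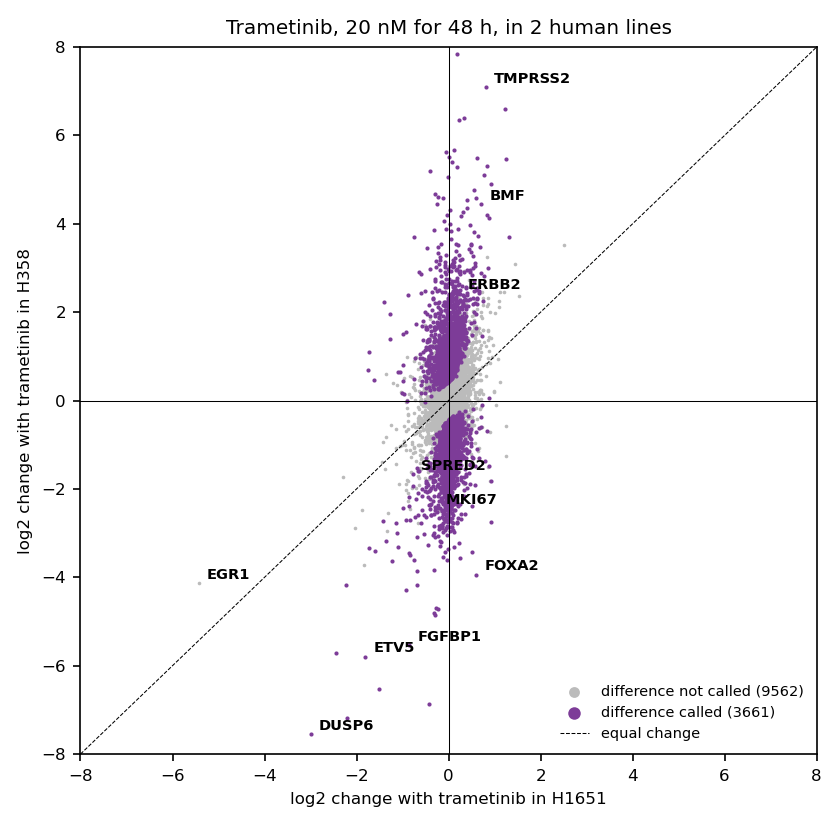
Log2 change with trametinib in H1651 (horizontal axis) and in H358 (vertical axis) for the 13223 genes of at least 1 CPM in the higher group of each line; purple marks the 3661 genes whose change was called different between the lines, grey the others, and the dashed line equal change. Points spread along the H358 axis and little along the H1651 axis, with DUSP6 and EGR1 called lower in both.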

How the data were processed

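Per the labels' protocols, Trizol-extracted, column-purified RNA went through poly(A) selection into strand-specific libraries read at both ends. The authors deposited raw read counts per gene with no normalization. The submitters' processing notes name cutadapt 3.5, STAR 2.7.6a and featureCounts 1.6.3, and list hg38 among the genome builds; the strand setting of the counting is not given in the sources used here. Gene symbols were those of the deposited table, and repeated or blank symbols were replaced by identifiers. H358 was fitted alone, in R 4.3.3 with edgeR 4.0.16 (filterByExpr defaults, TMM factors, quasi-likelihood F-test, Benjamini-Hochberg adjustment). The response of H358 minus that of H1651 was tested in a fit of 8 libraries by group means. The standard error of a log2 change is its size divided by the square root of F. The tests were checked on simulated counts. The alternatives tried were RLE or upper-quartile factors, DESeq2 1.42.0, no filter (any count), at least 10 counts in every library, a replicate term, and leaving out each library.

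Named genes were NKX2-1 and HNF4A, members of the gene lists (the 3 largest called changes of each at 5 CPM or more first), and the 12 largest rises and 12 largest falls at 10 CPM or more with no overlap. The 5 largest called differences between lines each way, among genes of at least 10 CPM in the highest group of either line, were also named. The comparison, lists and tests were chosen with earlier results of these data known. Results for a few genes that this rule covers are not reported here. Lists are described by counts and medians, with no set test. No human genome or sequence was used here, so no positions or promoter motifs are given. The libraries of H358 held 24843636 to 44081505 counts, those of H1651 32807891 to 45284286. Replicates of a group differed by more than counting noise, with a chi-square per degree of freedom of 15.1 for vehicle and 19.1 for trametinib in H358.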

Additional observations from a re-analysis of the deposited data

Results flagged for a closer look

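The response to trametinib differed between H358 and H1651 by the test of the difference itself in 4087 genes. The following differences are log2 changes in H358 minus those in H1651. Genes with the lower change in H358 were ETV1 (-6.45), ETV4 (-4.97), FGFBP1 (-4.67), DUSP6 (-4.56), FOXA2 (-4.53), LDHA (-2.34) and MKI67 (-2.19). Genes with the higher change in H358 were GRHL3 (6.65), TMPRSS2 (6.28), SULT1E1 (6.17), IGFBP5 (6.05), ATP13A4 (5.95), BMF (3.72) and ERBB2 (2.20). STC1 and HOXB4 were also called with the lower change in H358, but no value is given because both had 0 counts in the H358 trametinib group. GRHL3, ATP13A4 and SULT1E1 were under 1 CPM in all H1651 libraries, and their values moved when 1 H1651 library was left out. The lines came from separate tables, and line and table cannot be told apart.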

How the results depend on the processing

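The counts of genes called in H358 stayed within 1.5 times under every alternative: 7546 with DESeq2, 8902 and 8956 with RLE and upper-quartile factors, 9311 without the filter, 7993 with at least 10 counts in every library, and 6682 to 9265 without 1 library. DESeq2 shared 7467 of the calls, and no gene called in both changed direction under any alternative. Replicate numbers are shared in the labels but not said to mark a batch, and only 2 pairs exist. Across genes, replicate differences in vehicle and trametinib correlated at 0.318 in H358 and 0.491 in H1651. With a replicate block FOS passed the threshold (log2 change -1.41, edgeR adjusted p 1.32e-06), 11457 genes were called in H358, and the difference between lines had 8472, 4322 higher and 4150 lower in H358. Leaving out 1 library gave 2177 to 3667 genes for this difference, 977 to 1752 higher and 1200 to 1915 lower; fewer libraries enter these fits, and other causes were not tested.

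Values that changed sign were near 0 or spread widely. Without 1 library, the list median ran from -0.067 to 0.100 for the RAS to ERK core (below 0 without vehicle replicate 1 or trametinib replicate 2), from -0.031 to 0.177 for the BCL2 family (likewise) and from -0.335 to 0.335 for the airway cell types list, whose median was 0.664 without the filter. Of genes that were not called, the log2 change without 1 library ran from -0.509 to 0.687 for AGER (0.034 with upper-quartile factors), from -0.018 to 0.092 for AGR2, from -0.059 to 0.096 for EGFR, from -4.19 to 0.776 for FOS, from -1.28 to 2.97 for FOSB and from -0.081 to 0.092 for SLC2A1. The NKX2-1 difference between lines ran from -0.499 without H1651 vehicle replicate 1 to 0.588 without H1651 vehicle replicate 2. The cause of these changes was not tested. The description of promoter motifs was not run, since no human promoter sequence was used here. With 2 libraries a group, a count of 0 allows up to 0.118 CPM in the shallowest H358 library.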
